A study of Solanum lycopersicum with 8 samples.

Results

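Chromosome 2 of tomato was described in 2 lists, one of open chromatin in leaves and one of chromatin loops in inflorescences. Its members are all leaf ATAC-seq peaks that the deposited list places on chromosome 2, which are 7559 of 69690 peaks, and all Hi-C loops that the deposited list places there, which are 1148 of 9573 loops. ATAC-seq marks open chromatin by the insertion of a transposase, and Hi-C ligates DNA ends that lie close together in the nucleus. The leaf samples were 6 replicates from cultivar M82, taken from the terminal leaflet of a young leaf, with 1 g of tissue and 100000 nuclei in each. The loops came from 2 replicates of inflorescences of anantha-e1546 mutants in the M82 background, 1 plant each, with 3.3 g and 3.1 g harvested 10 weeks after sowing. The growth text of the labels also names the mutant for the ATAC-seq plants, while the genotype label of the leaf samples is M82, which was followed. The mutated locus, Solyc02g081670, carries the number of chromosome 2 in its name, so the loops were measured in plants with a mutation on this chromosome. In anantha plants, inflorescences stay masses of meristems in place of flowers.

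Each list holds 1 set of positions for all its replicates, so no value below has a spread between replicates, and read depth is unknown. Chromosome 2 was therefore set beside the other 11 chromosomes of the same list by value and rank. With 1 chromosome against 11, an exact permutation test could not give a p below 0.0833, so no test was made, and a rank is a description of these lists. Intervals on shares are 95% Wilson intervals and intervals on medians are 95% order-statistic intervals. Both cover counting error only and treat neighbouring peaks or loops as independent, which they may not be. The peaks are in SL4.0 coordinates and the loops are in an assembly that the list does not name. The last anchor bin ended 1.64 Mb beyond the last peak, and the lists were not overlaid.

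Most tomato chromosomes have a gene-rich, open stretch at either end and a long block of repeat-rich heterochromatin around the centromere. Chromosome 2 is acrocentric, and its short arm carries the nucleolus organizer, a tandem array of genes for the ribosomal RNAs of both ribosome subunits. Such arrays are repetitive, and assemblies hold them to different degrees. In the RefSeq annotation of a further assembly, SLM_r2.1, chromosome 2 had 4707 rRNA genes, against 698 on chromosome 1, 450 on chromosome 11 and at most 4 on any other chromosome. They were 99.1% of the first 4748 genes in order along that chromosome, and 3 of its 2845 protein-coding genes came before the last of them. Of these rRNA genes, 1593 were 140 to 170 bp long, 1545 were 1700 to 1900 bp and 1568 were 3200 to 3500 bp, with medians of 156, 1808 and 3390 bp. The same table gives AN as a synonym of the gene DOT, at place 1723 among the protein-coding genes of chromosome 2. Neither deposited list holds annotation, so where the array, the centromere or any gene lies in its coordinates is not known here. The name of a short-arm side was not checked beyond this, and the sides below are named by their counts.

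The leaf list showed a chromosome with 1 dense side. The sparse side ran from the start to 20 Mb and held 275 peaks (3.64%), at 13.8 per Mb. A rise from 20 to 31 Mb held 578 peaks (7.65%), at 52.5 per Mb. The dense arm, from 31 Mb to the last peak at 53439279, held 6706 peaks (88.7%), at 299 per Mb. The sparse side ended where 3 windows of 1 Mb in a row first reached 29 peaks, the median of all 766 full windows on 12 chromosomes. The dense arm began where 3 in a row first reached the mean, 87.5 peaks. For peaks the planned limit of the dense side was the median alone, which was met at 20 Mb. The mean was added after the data were seen, so the cut between rise and dense arm was not planned. On each of the other 11 chromosomes both limits were met in the first window.

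The sparse side was thin but not empty. Its 20 windows held 3 to 29 peaks each, with a median of 14.5, and 7 windows held fewer than 10. The first 5 windows held 14, 15, 5, 17 and 16 peaks. The lowest counts were 3 peaks at 12 to 13 Mb and 4 peaks each at 8 to 9 and 17 to 18 Mb, and the highest was 29 at 9 to 10 Mb. Counts therefore did not climb from the start towards 20 Mb. The first peak spanned 67850 to 68840, and the next 4 lay together between 247007 and 249796. In the first 20 Mb the other chromosomes held 1127 peaks on chromosome 6 to 2492 on chromosome 5.

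The rise was uneven. Windows at 20 to 23 Mb held 30, 68 and 40 peaks, and the window at 23 to 24 Mb held 86. Counts then fell to 23 at 24 to 25 Mb, came to 67 in the next window, and were 27 and 26 at 26 to 28 Mb. They were 45, 95 and 71 at 28 to 31 Mb. The strong step came later, from 125 peaks at 32 to 33 Mb to 263 at 33 to 34 Mb.

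Within the dense arm the count grew towards the end of the chromosome. The 22 full windows held 110 to 405 peaks, with a median of 315.5. Count and position along the arm had a Pearson r of 0.87 and a Spearman rho of 0.90 over these windows. They share 1 list and adjoin each other, and the rule starts the arm just above the mean, which favours a positive correlation. The growth was not steady, with a fall from 354 peaks at 42 to 43 Mb to 288 at 46 to 47 Mb. The 5 fullest windows were the last 5 full ones, with 373 peaks at 48 to 49 Mb, then 380, 381, 405 and 393 at 52 to 53 Mb. Of the 10 fullest windows of the 12 chromosomes, 4 were on chromosome 2, which has 6.92% of the full windows. Chromosome 3 had the fullest window of all, with 415 peaks. The median peak of chromosome 2 lay at 42.5 Mb.

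**Figure D1:**
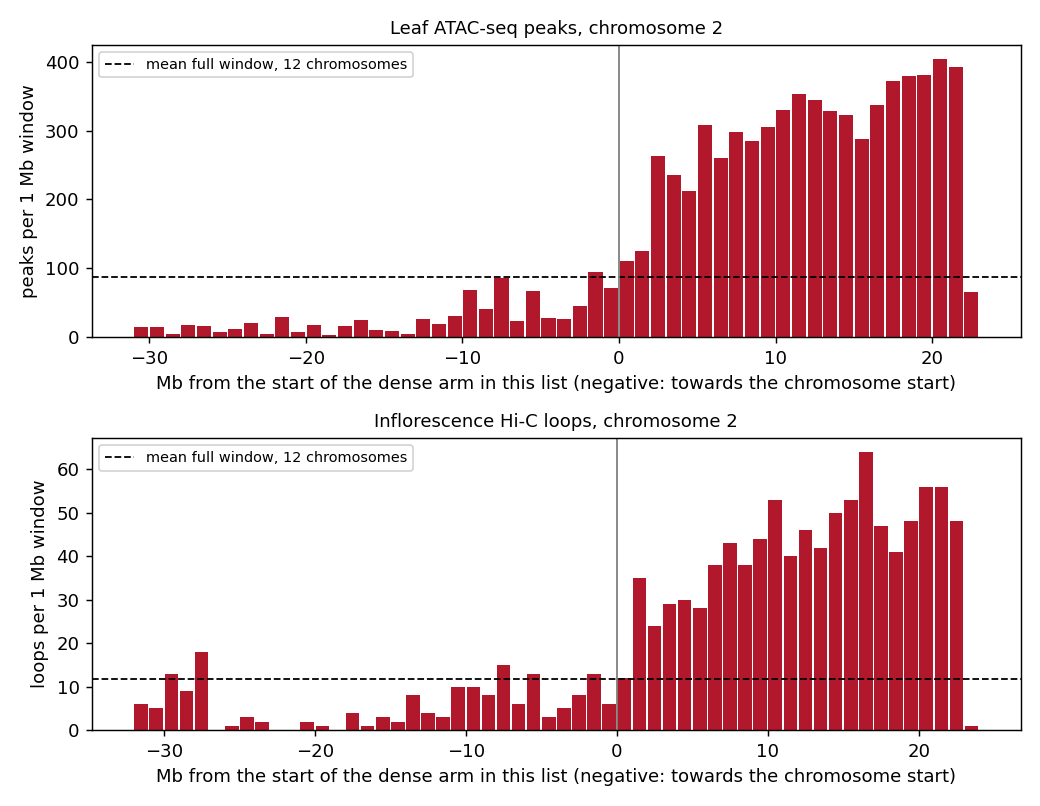
Leaf peaks (top) and inflorescence loops (bottom) in each 1 Mb window of chromosome 2, plotted by distance in Mb from the start of the dense arm of that list, with the mean full window of 12 chromosomes as a dashed line (87.5 peaks, 11.7 loops). Both lists are low on the left and dense on the right, and the loops show a small separate group at the far left, with up to 18 loops in a window.

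The high overall density of chromosome 2 came with both more dense windows and fuller ones. It had 141 peaks per Mb, first of 12, against 67.5 on chromosome 12 to 124 on chromosome 6. Of its 53 full windows, 23 (43.4%) reached the mean, which was close to chromosome 6 with 42.6% and above the other chromosomes, down to 20.3% on chromosome 10. These windows held a mean of 293 peaks on chromosome 2, against 211 on chromosome 9 to 260 on chromosome 1. Below the mean, its windows held 25.3 peaks, within the range of 20.1 to 30.1 elsewhere. Under the median, they held 14.6 peaks, against 11.1 to 15.2. Its sparse windows thus lay within the range of other chromosomes, and its dense windows were fuller than theirs. Dense windows adjoined each other more than on most chromosomes. The longest unbroken run of them was 22 windows, equal to chromosome 1 and above a median of 12 over the others.

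**Figure D2:**
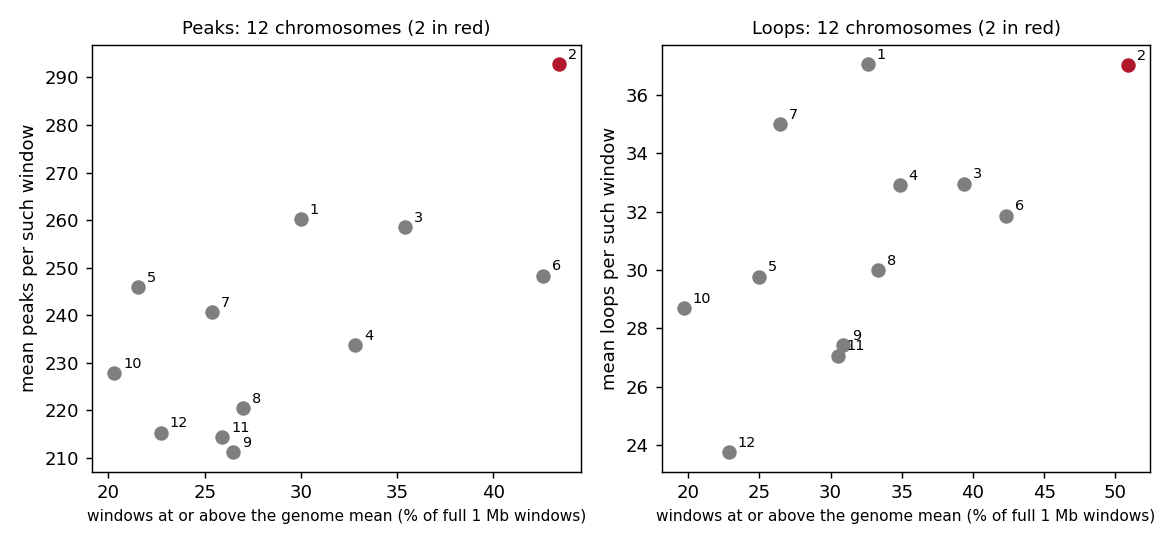
Each point is a chromosome, with the share of its full 1 Mb windows that reach the mean of all windows (x axis, percent) and the mean count in those windows (y axis), for peaks (left) and loops (right). Chromosome 2, in red, has the highest share in both panels (43.4% and 50.9%), the highest count for peaks (293) and nearly the same count as chromosome 1 for loops (37.0 against 37.1).

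Peaks of the sparse side were weaker than those of the rest of the chromosome, though not narrower. Their median −log10 q, the authors' measure of a peak's strength, was 1.98 (interval 1.87 to 2.22), against 2.68 (2.41 to 2.90) in the rise and 2.63 (2.58 to 2.67) in the dense arm. The share of peaks at the score ceiling of 1000 was 28.4% (interval 23.4 to 34.0%) on the sparse side, 47.1% (43.0 to 51.1%) in the rise and 44.5% (43.4 to 45.7%) in the dense arm. A q above 0.05 was listed for 32 of the 275 peaks on the sparse side, or 11.6% (interval 8.36 to 16.0%). In the dense arm the share was 2.61% (interval 2.25 to 3.02%). Sparse windows on other chromosomes also held weak peaks. In windows under the median count, the median −log10 q was 2.24 on chromosome 2, seventh of 12, and 1.92 to 2.58 elsewhere. The share at the ceiling there was 34.2%, within the range of 33.5 to 45.3% elsewhere. These windows of chromosome 2 are not the sparse side itself. They leave out 9 to 10 Mb, with 29 peaks and a median of 1.35, and take in 24 to 25 and 26 to 28 Mb of the rise. The sparse side's own 28.4% at the ceiling lay below the range elsewhere. Its 11.6% with a q above 0.05 lay above the range of 3.21 to 8.96% in windows under the median elsewhere.

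The median width was 679 bp (interval 637 to 749 bp) on the sparse side, 614.5 bp (577 to 639 bp) in the rise and 697 bp (685 to 707 bp) in the dense arm. Peaks over 3000 bp made up 4% of the sparse side, 0.692% of the rise and 3.19% of the dense arm. The rise thus had the narrowest peaks but no weaker ones. In windows at or above the mean, the median width of chromosome 2, 696 bp, was the highest of 12, and chromosome 10 followed closely with 693 bp. Over the whole chromosome it was 688 bp, against 646 to 677 bp elsewhere, but with only the upper scores kept (at least the median of the list) it came second, at 756 bp.

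The strongest peaks lay both in the rise and in the dense arm. By score and then −log10 q, the first spanned 39449823 to 39452709 (SL4.0), where −log10 q reached 15.9. The second spanned 25325411 to 25328154 and reached 14.6, and the next one, at 51810427 to 51813490, reached 14.5. Peaks at 24527735 to 24529053 and at 29289531 to 29291095 both reached 14.3. Of these 5 peaks, 3 lay in the rise, which held 7.65% of the peaks, and the one at 51810427 lay in the fullest window. The sparse side also held strong peaks. The strongest there, chosen after its value was seen, spanned 17500583 to 17506766 with a −log10 q of 12.5, and it bordered one of the longest stretches without a peak. The 5 widest peaks were all in the dense arm, which held 88.7% of all peaks. The widest spanned 33774018 to 33786563, or 12.5 kb, beside the step in density at 33 Mb. The others were 11.95 kb at 46250437 to 46262386, 10.1 kb at 43234015 to 43244147, 9.91 kb at 40386567 to 40396479 and 9.53 kb at 41645793 to 41655324.

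Gaps between neighbouring peaks followed the same division, as the stretches were cut by peak count and fuller windows leave less room between peaks. The gaps are therefore no separate support for the division. The median gap was 11255 bp on the sparse side, 2035 bp in the rise and 644 bp in the dense arm. Gaps under 1 kb made up 24.8% (interval 20.1 to 30.3%), 40.9% (36.96 to 44.96%) and 59.4% (58.2 to 60.6%). Runs of at least 4 peaks with gaps under 1 kb held 6.55% of the peaks of the sparse side, 18.5% of those of the rise and 49.02% of those of the dense arm. Even on the sparse side, close neighbours occurred. The longest run held 21 peaks from 51798542 to 51828073, in the fullest window, and it contained the peak at 51810427 named above. In windows at or above the mean, the median gap to the next peak was 652 bp on chromosome 2 and 709 to 920 bp elsewhere, the shortest of 12. Such windows were also the fullest on chromosome 2, with a mean of 293 peaks, so this rank is not separate from that of the counts. In windows under the median, the median gap was 9153 bp, within the range of 5110 to 18270 bp elsewhere.

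The longest stretch without a peak ran from 12336808 to 13757039, or 1.42 Mb, and the longest stretches of the other chromosomes ranged from 0.770 Mb on chromosome 6 to 2.14 Mb on chromosome 9. The next was at 28447156 to 29153034, or 706 kb, and lay in the rise. Then came 576 kb at 8041186 to 8617165, 547 kb at 17506767 to 18053707 and 528 kb at 2307351 to 2835796, all on the sparse side. The sparse side had 61 gaps over 100 kb, which together covered 16.3 of its 20 Mb. The dense arm had 6, covering 0.882 Mb, and its longest was 213 kb. Over the whole chromosome such gaps took up 42.2% of the extent, second lowest after chromosome 6 with 38.1%, against up to 59.0% on chromosome 12.

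**Figure D3:**
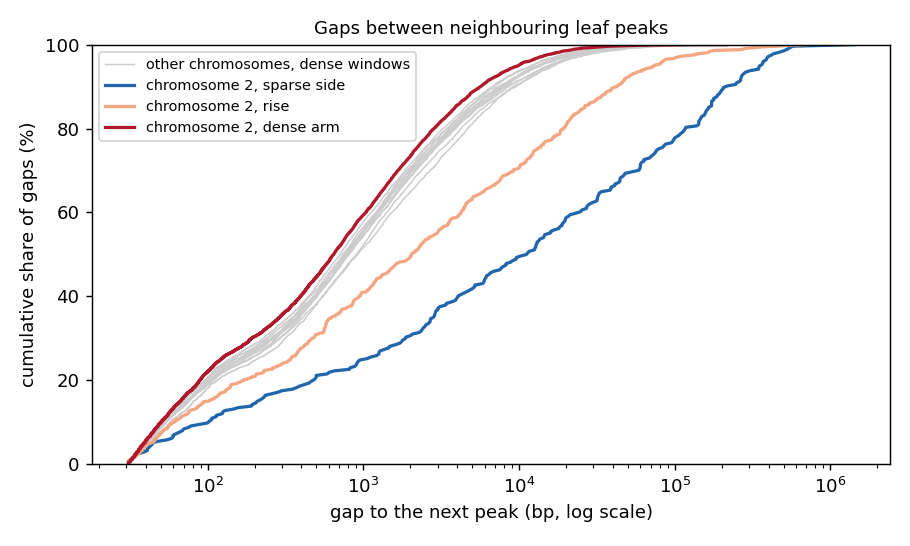
Cumulative share of gaps between neighbouring leaf peaks (y axis, percent) by gap length (x axis, bp, log scale) for the 3 stretches of chromosome 2, with the windows at or above the mean of the other 11 chromosomes in grey. The dense arm reaches 59.4% at 1 kb and lies to the left of the grey lines there, and the sparse side reaches 24.8%. The stretches and windows were chosen by peak count, which itself shortens gaps.

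Loops in the inflorescences had the same broad division. By the mean of all full windows, 11.7 loops, the dense arm of the loop list began at 32 Mb in its own coordinates, and on each of the other 11 chromosomes at 0. The 32 windows before it held 182 loops (15.9%), at 5.69 per Mb, and the dense arm held 966 loops (84.1%), at 41.9 per Mb. The peak list gave 31 Mb by the same rule in SL4.0. The start of the loop arm depended on the shortest loops. Without the loops of 10 kb, the limit was met at 2 Mb, by the group of loops near the start described below, and by the median of 3 loops it was met at 0. The contrast with the other chromosomes also depended on the window: with windows of 2 Mb chromosome 2 stayed at 32 Mb, but only 6 of the other 11 were at 0, and 5 (chromosomes 1, 6, 7, 8 and 10) met the limit later, at 36 to 70 Mb.

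In the dense arm, full windows held 12 to 64 loops, with a median of 43. Counts grew along the arm (Pearson r 0.81, Spearman rho 0.83 over 23 adjoining windows), from 12 at 32 to 33 Mb and 35 in the next window to 64 at 48 to 49 Mb, the fullest window of the 12 chromosomes. The rule again starts the arm at a window near the mean, which favours a positive correlation. From 42 to 55 Mb the windows held 40 to 64 loops and did not climb steadily. The last full windows held 56, 56 and 48. Chromosome 2 had 20.8 loops per Mb, first of 12, against 6.86 on chromosome 12 to 15.1 on chromosome 6. As for peaks, the share of full windows at or above the mean was the highest, 50.9% against 19.7 to 42.3%. Such windows held 37.0 loops, second to 37.1 on chromosome 1. On chromosome 2 they include windows before the dense arm, at 2 to 3, 4 to 5, 24 to 25, 26 to 27 and 30 to 31 Mb. The share is therefore not the extent of the arm.

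On average, the other windows of chromosome 2 held more loops than those of any other chromosome. Below the mean, a window held on average 4.07 loops on chromosome 2 and 1.5 to 2.6 elsewhere. From 5 to 18 Mb, however, chromosome 2 held only 1.46 loops per Mb. Only 4 of 55 full windows (7.27%) held no loop, against 14.7% on chromosome 9 to 33.8% on chromosome 7. The longest stretch without an anchor, from 12625001 to 14445000, was 1.82 Mb, and on the other chromosomes the longest ranged from 3.70 to 9.33 Mb. The next ones were 1.76 Mb at 9000001 to 10755000, 1.09 Mb at 15255001 to 16340000, 1.01 Mb at 7805001 to 8815000 and 0.96 Mb at 5365001 to 6325000, all between 5 and 17 Mb. Chromosome 2 also had the fewest peaks per loop, 6.58, against 6.81 on chromosome 8 to 9.32 on chromosome 12.

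The loops before the dense arm fell into 3 stretches, whose limits were chosen after the counts were seen. The first 5 windows held 6, 5, 13, 9 and 18 loops, 51 in all, or 10.2 per Mb. The windows from 5 to 18 Mb held 0 to 4 loops, 19 in all, or 1.46 per Mb. Those from 18 to 32 Mb held 3 to 15, 112 in all, or 8.00 per Mb. The list of loops thus had a separate group at the start of the chromosome. The first 5 windows of the leaf list held 67 peaks. The other chromosomes had 840 to 1478 peaks and 118 to 211 loops in their first 5 Mb, each list in its own coordinates.

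Loops near the start were long. The median span of the 51 loops was 375 kb (interval 300 to 425 kb), and 38 of them, or 74.5% (interval 61.1 to 84.5%), were longer than 200 kb. In the first 5 Mb of the other chromosomes the median span was 10 to 35 kb, and the share over 200 kb was 0 to 16.1%, highest on chromosome 6. From 18 to 32 Mb of chromosome 2 the median was 85 kb, and 29.5% exceeded 200 kb. In the dense arm it was 15 kb, and 12 of 966 loops, or 1.24% (interval 0.712 to 2.16%), exceeded 200 kb. Before the dense arm lay 78 of the 90 loops over 200 kb, or 86.7%, in a stretch with 15.9% of the loops. The arm was cut by loop count, and 482 of its 966 loops were of 10 kb. The contrast in span is therefore partly set by the cut. Windows below the mean elsewhere also held long loops. On chromosome 2 such windows leave out those at 2 to 3 and 4 to 5 Mb, with 31 of the 51 loops near the start and 23 of the 38 over 200 kb. The median span in windows below the mean was 180 kb on chromosome 2 and 110 to 260 kb on the others, and the share over 200 kb was 46.8% against 34.6 to 58.1%.

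**Figure D4:**
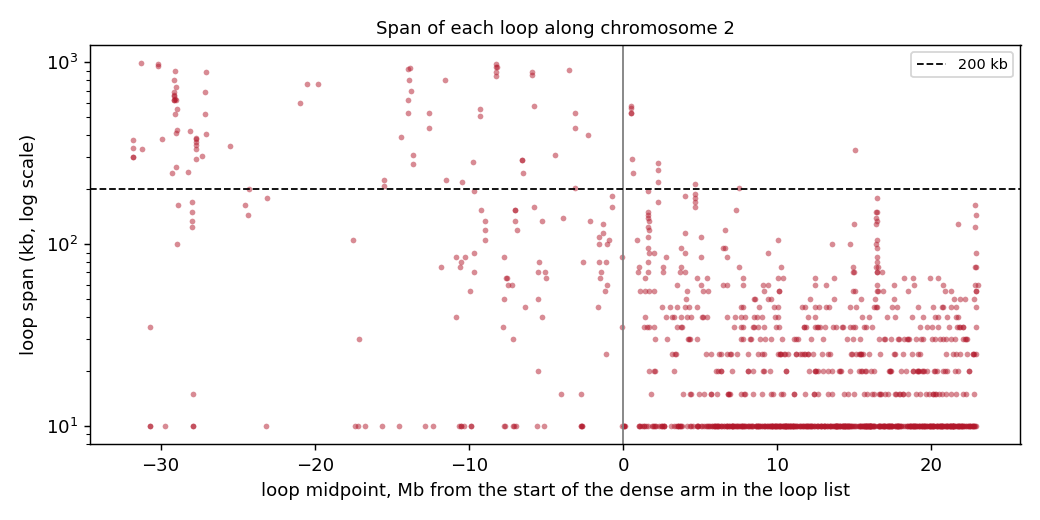
Span of each of the 1148 loops of chromosome 2 (y axis, kb, log scale) by the distance of its midpoint from the start of the dense arm of the loop list (x axis, Mb); the dashed line marks 200 kb. To the right of 0 most loops are 10 to 100 kb, with a median of 15 kb, and the group at the far left has a median of 375 kb. The arm was cut by loop count, to which short loops add.

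The 5 longest loops all lay before the dense arm. The longest joined the bin at 240001 to 245000 with that at 1235001 to 1240000, a span of 995 kb. One of 975 kb and one of 960 kb shared the bin at 1325001 to 1330000 and ended at 2300001 to 2305000 and 2285001 to 2290000. Another of 975 kb joined 23300001 to 23305000 with 24275001 to 24280000, and one of 945 kb ran beside it from 23320001 to 23325000 to 24265001 to 24270000. Several long loops ran in parallel in this way. Of the 90 loops over 200 kb, 43 (47.8%) had another within 10 bins, or 50 kb, at both ends, and on the other chromosomes this share ran from 24.7% to 59.4%. The window at 23 to 24 Mb held 5 of them, from 23290001 to 23345000 at one end and from 24185001 to 24280000 at the other, with spans of 845 to 975 kb. The window at 2 to 3 Mb held 6, with spans of 620 to 685 kb, and that at 4 to 5 Mb also held 6, with spans of 295 to 385 kb. Parallel long loops were also found in the dense arm, where 6 lay at 32 to 33 Mb, with spans of 245 to 575 kb, and 3 at 34 to 35 Mb, with spans of 220 to 280 kb. Over all 12 chromosomes, 35 windows held at least 5 loops with a median span of at least 300 kb, limits set after the spans were seen. Chromosome 2 had 7 of them, chromosome 9 had 6, and the others had 1 to 4.

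Short loops made up much of the dense arm, whose start depended on them, so their share there is not separate from the cut. Loops of 10 kb, the shortest listed, were 482 of its 966 loops, or 49.9% (interval 46.8 to 53.0%), and 31 of the 182 before it, or 17.0% (12.3 to 23.2%). They were 4 of 12 loops at 32 to 33 Mb, 10 of 35 in the next window, 27 of 64 in the fullest window, 33 of 56 at 53 to 54 Mb and 19 of 48 in the last full window, so the share did not grow steadily along the arm. Over the whole chromosome 44.7% of loops were of 10 kb (interval 41.8 to 47.6%) and 40.4% on the other chromosomes together. Chromosome 1, at 46.1%, and chromosome 6, at 44.9%, had higher shares, and the lowest was 33.8% on chromosome 9. Loops of 15 to 40 kb were 28.0% against 26.8%, those of 45 to 200 kb were 19.5% against 22.6%, and those over 200 kb were 7.84% against 10.2%. Chromosomes 1, 3 and 6 had lower shares over 200 kb, down to 6.07%, and the highest was 15.8% on chromosome 10. The median span, 15 kb, equalled that of chromosome 1, and the others had 20 to 35 kb. With loops within 2 bins of each other at both ends merged, it was 17.5 kb, and 2 chromosomes had a lower median.

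Anchors were used more than once in both the sparse and the dense stretches. The 1148 loops used 1831 bins of 5 kb, 16.6% of the bins of the chromosome, first of 12, against 5.88 to 12.4% elsewhere. Of these bins, 1440 anchored 1 loop, 333 anchored 2, 44 anchored 3, 12 anchored 4 and 2 anchored 5. The share with at least 2 loops was 21.4%, second to 21.9% on chromosome 8, but without the 10 kb loops it was 14.6%, rank 5 of 12. The share was 21.8% in the first 5 Mb, 5.56% from 5 to 18 Mb, 12.2% from 18 to 32 Mb and 22.9% in the dense arm. The bins with 5 loops were at 46895001 to 46900000, with spans of 10 to 330 kb, and at 48435001 to 48440000, in the fullest loop window, with spans of 55 to 105 kb. Of the 12 bins with 4 loops, 2 lay near the start. These were at 2555001 to 2560000, with spans of 620 to 685 kb, and at 4465001 to 4470000, with spans of 335 to 380 kb, whereas no loop of the other 10 exceeded 180 kb.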

How the data were processed

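The submitters' processing notes name HiC-Pro 3.1.0, Genrich 0.6, bedtools, SAMtools, Picard, BWA and Trimmomatic, without roles, and settings were not given. By its name, the deposited peak list was made with Genrich and the loop list with FitHiC. The deposited peak list gives a start, an end, a score up to 1000 and a −log10 q for each peak. Scores were used only to rank or filter peaks and to give the share of peaks at the ceiling of 1000. The deposited loop list gives the midpoints of both 5 kb anchor bins, with no strength.

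Positions are printed 1-based, with peak starts taken as BED starts. A peak or loop belongs to the 1 Mb window of its midpoint, and an extent ends at the last peak or anchor bin. Unplaced sequence was left out of comparisons. Items named by position follow rules on rank by score, width, gap, span and anchor use, unless said otherwise. The chromosome and the rules were chosen with earlier results of these data known. The functions were tested on simulated lists. Python 3.11.15, numpy 2.4.6, pandas 2.3.3 and scipy 1.17.1 were used. The alternatives were stricter peak lists, merged peaks or loops, loops over 10 kb, other window sizes and other limits.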

Additional observations from a re-analysis of the deposited data

How the results depend on the processing

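Of 53 alternative values, 27 stayed within 1.5 times the reported value (counts and densities), within its 95% interval (shares and medians) or within 1 Mb (the start of the dense side). Some settings move a value by definition: keeping the upper scores lowers counts, and leaving out 10 kb loops raises the share of long ones. The count is therefore not a rate of stability. Reported values of the whole chromosome not given above were a median gap of 718 bp, 56.7% of gaps under 1 kb and a median −log10 q of 2.60. The first 20% of the extent held 1.92% of peaks and 4.97% of loops. With q at or below 0.05 the median −log10 q was 2.66. At or above the median score there were 3819 peaks, 71.5 per Mb, 1.34% in the first 20% of the extent, a median width of 756 bp, a median gap of 2271 bp, 35.3% of gaps under 1 kb, a median −log10 q of 4.27 and 145 peaks per dense window. With peaks within 150 bp merged, the share in the first 20% was 2.27%, the width 807 bp, the gap 1380 bp and the close share 41.4%. Without 10 kb loops there were 635 loops, 11.5 per Mb, 8.03% in the first 20%, a dense side from 2 Mb and a median span of 40 kb. Of these loops 14.2% exceeded 200 kb, and 14.6% of anchor bins were shared. Among the loops before 32 Mb, the share over 200 kb was 51.7%, against 42.9% with the 10 kb loops kept. With loops within 2 bins merged, 14.7% were shared. The first 10% and 30% of the extent held 0.900% and 2.87% of peaks. Added after seeing the data, the mean as limit put the dense side of peaks at 31 Mb in place of 20 Mb, and the median put that of loops at 0. Chromosome 2 stayed first in density with the stricter or merged lists and without 10 kb loops, and last in the share at the start in these and with 10% and 30%. With 2 Mb windows the loop arm stayed at 32 Mb, but 5 other chromosomes then began later, up to 70 Mb. The rank of the shared anchors fell from 2 to 5 without 10 kb loops and to 3 with merged loops, and that of the median span from lowest to 3 from lowest with merged loops. No paired analysis was possible because all replicates of an assay share 1 list, and for that reason no replicate could be left out.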
